A study of Rattus norvegicus with 3 samples.

Results

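Voltage-gated sodium and calcium channel genes were examined in cultured commissural neurons of the rat, the spinal neurons whose axons cross the midline. The genes were chosen by symbol, as pore-forming alpha subunits of sodium channels and alpha1 subunits of calcium channels, their beta, alpha2delta and gamma subunits, the leak channel Nalcn and the FGF homologous factors Fgf12, Fgf13 and Fgf14. The symbols matched 43 of the 26353 entries in the authors' table, and the sodium pore gene Scn2a was not among them. The cells were taken from the spinal cord at embryonic day 13 and grown for 2 days, without any treatment named in the labels. There were 3 libraries of polyadenylated RNA, which form 1 group with no control, and they are called libraries 1, 2 and 3 here by their replicate numbers. The unit is the authors' FPKM, which scales sequenced fragments to transcript length and library size, so levels of different genes can be compared per length.

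Voltage-gated channels open when the membrane depolarizes. Sodium channels carry the upstroke of the action potential, and their beta subunits and the intracellular FGF homologous factors tune gating and placement. Calcium channels couple activity to transmitter release, growth cone behaviour and gene expression. Each high voltage activated calcium channel joins an alpha1 pore with a beta and an alpha2delta subunit, whereas T-type pores open near rest and do not need them. Most gamma proteins are better known as partners of AMPA-type glutamate receptors than of calcium channels.

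The cultures carried the label's markers. All 8 pan-neuronal and all 4 commissural axon markers lay above 1 FPKM, as did 63.7% of all entries tested. Robo3, a receptor of precrossing commissural axons, had 104 ± 25.4 FPKM (SD, n = 3). All 6 progenitor markers also lay above 1 FPKM, with sums of 928, 1183 and 958 FPKM in libraries 1, 2 and 3. A channel transcript therefore cannot be assigned to neurons alone. Nothing in the labels places the libraries in separate cultures or animals, so errors and p-values measure only how these samples vary, which may be technical variation. Library 2 had lower values than the others for most pore subunits, and calls or leading ranks that change without it are given both ways. FPKM carries no read counts, so the depth behind a value is unknown.

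The channel genes fell into a large expressed set and a smaller set close to 0. In limma's one-sided test against 1 FPKM, with Benjamini-Hochberg adjustment over all entries, 29 of the 42 channel genes tested (69.0%) lay above 1 FPKM, against 63.7% of all 17611 entries tested. The remaining gene of the 43, Cacng1, was listed at 0 in each library and was not tested. The share of channel genes was thus close to that of all entries. The median of the 42 genes was 4.16 FPKM, against 4.81 over all entries tested. Cacng1 included, 11 genes were below 0.1 FPKM in every library. The other 3 fell between. Above 1 FPKM were 11 of 20 pore genes, Nalcn included, and 18 of the 22 auxiliary genes tested. Of the 14 genes with a mean over 10 FPKM, 11 encode auxiliary subunits or binding factors, which make up 23 of the 43 genes. The share of all entries over 10 FPKM was not counted, and transcript length was not examined.

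**Figure D1:**
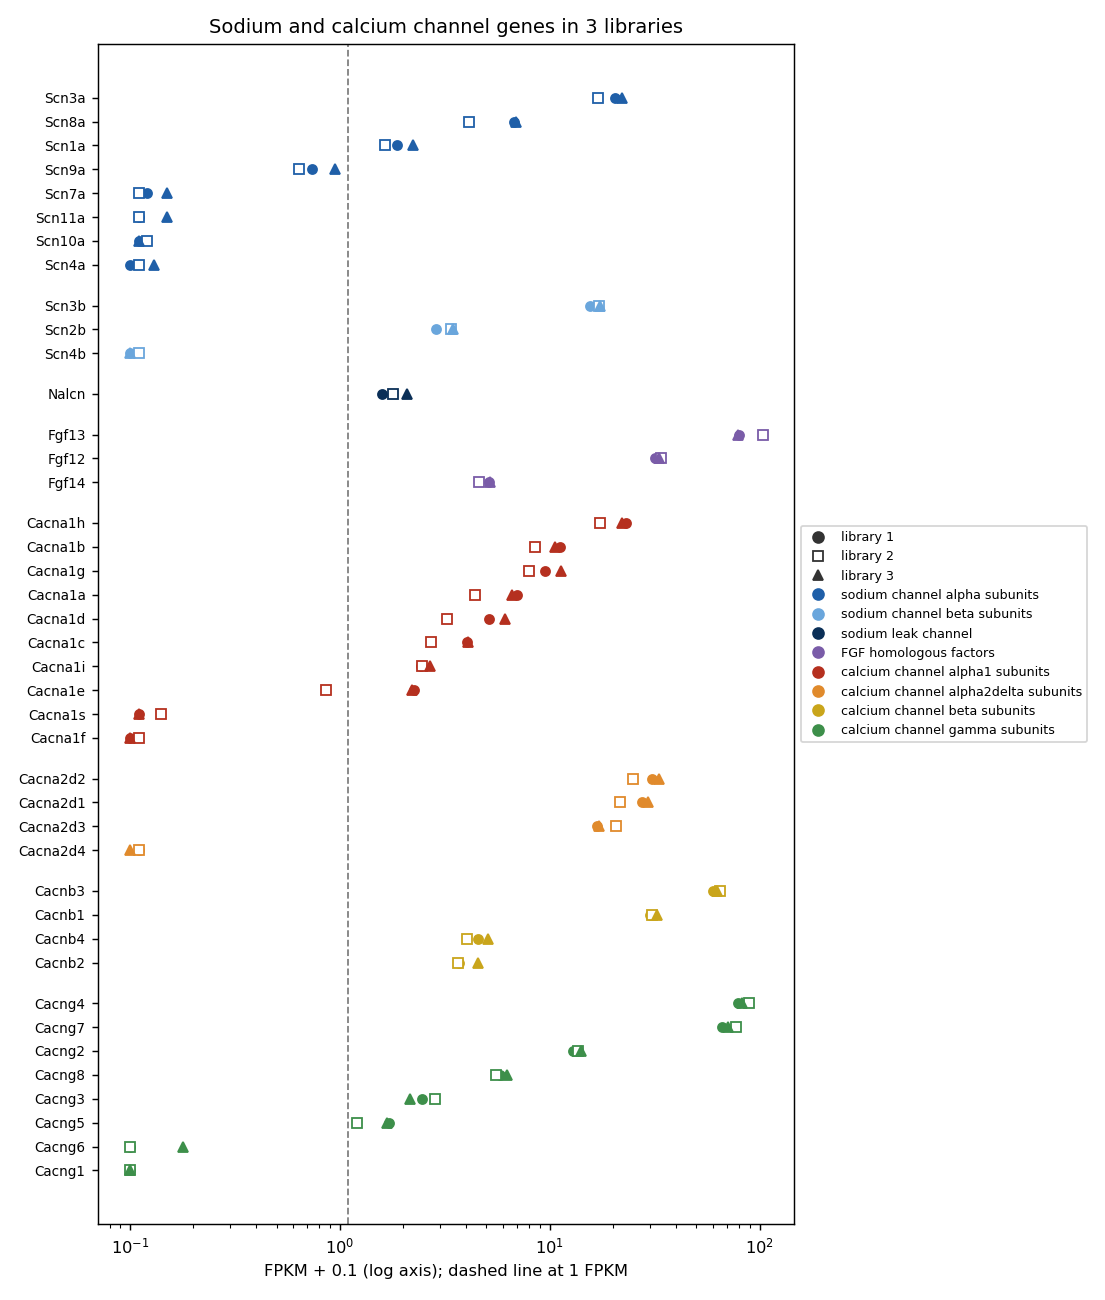
FPKM + 0.1 of the channel genes named here in libraries 1, 2 and 3 (filled circle, open square, triangle) on a log axis, coloured by family, with a dashed line at 1 FPKM. The genes at the left edge stayed below 0.1 FPKM in every library, and the open squares of library 2 lie left of the other libraries for 10 of the 12 pore genes with a mean of at least 1 FPKM.

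Among the sodium channel alpha subunits, Scn3a led. Scn3a encodes the pore best known from embryonic brain, and it had 20.4, 16.9 and 22.1 FPKM in libraries 1, 2 and 3. Scn8a, the pore that dominates adult nodes and initial segments, had 6.65, 4.01 and 6.8 FPKM. Scn1a, known from fast-spiking interneurons, had 1.77, 1.54 and 2.14 FPKM. The ranges of these genes did not overlap, and all 3 lay above 1 FPKM (Scn1a with limma's adjusted p = 0.000279), as did 63.7% of all entries tested. Scn9a, a pore of peripheral sensory and sympathetic neurons, had 0.640, 0.540 and 0.850 FPKM and did not pass. Library 2 was the lowest of the 3 libraries for each of these 4 genes.

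The remaining sodium pores were close to 0. Scn10a and Scn11a, pores of nociceptors, reached at most 0.0200 and 0.05 FPKM. Scn4a of skeletal muscle reached at most 0.0300 FPKM. Scn7a, a sodium-sensing relative, reached at most 0.05 FPKM. The ranges of these genes overlapped, so their order cannot be given. Markers of the tissues that use these pores were low as well. Of 8 striated muscle markers, 0 passed limma's test by adjusted or by unadjusted p under 0.05, with list sums of 0.650, 0.600 and 0.730 FPKM and with Myog and Actc1 listed at 0 in each library. Of 7 sensory ganglion markers, 1 passed, the peptide gene Calca with 1.71 ± 0.282 FPKM. Both counts stand beside the 63.7% of all entries tested that passed.

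Each family was then set against 1 gene chosen from textbook knowledge, as the ratio within each library, on the log2(FPKM + 0.1) scale. That scale understates differences of low genes. Every ratio to one gene shares that gene's own scatter, and in 4 of the 7 families limma then took the pooled variance as known. Its moderated p-values for ratios thus do not reflect each ratio's own spread. Many were far smaller than without moderation, but some were larger. For Cacna2d2 over Cacna2d1 the adjusted p was 0.434 in limma's moderated test, against 0.0136 without moderation. Intervals and adjusted p-values of ratios given here therefore come from each ratio's own spread over the 3 libraries, with 2 residual degrees of freedom and Benjamini-Hochberg adjustment over all 17610 entries. This test was added after the data were seen, and a spread taken from 3 libraries is itself uncertain. For Cacna1h over Cacna1b its interval was 2.01 to 2.10, against 1.57 to 2.69 in the moderated fit. The moderated call is named where the tests differ, which happened for 2 of 34 ratios, both of alpha2delta genes. Counts of genes past the threshold in the other families were thus the same by both tests, and the shares of all entries beside them are given for the test without moderation first and for the moderated test after it.

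Scn3a exceeded Scn8a by 3.43-fold (95% interval 2.29 to 5.14) and did so in 3 of 3 libraries (limma without moderation, adjusted p = 0.011). It exceeded Scn1a by 10.4-fold (9.15 to 11.8) and Scn9a by 25.8-fold (20.7 to 32.2). All 8 other alpha genes were below Scn3a past the threshold, where 65.9% of all entries were below it and 13.9% above without moderation, and 71.2% and 17.9% in the moderated test. Scn3a held 69.2%, 73.3% and 68.9% of the summed FPKM of the 9 alpha genes in libraries 1, 2 and 3. An entry named SCN2A1, whose symbol the choice did not cover, had 4.87, 3.93 and 4.68 FPKM. Its symbol is an older name of the brain pore gene Scn2a. Counted in, Scn3a still held 60.7 ± 1.69% of the sum and the SCN2A1 entry 13.8 ± 0.967%. These pores are closely similar in sequence, and the sources used here do not say how reads that map to several of them were treated.

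The sodium channel beta subunits are single-span proteins that modulate gating and act as adhesion molecules. Scn3b had 15.4, 17.1 and 17.3 FPKM and Scn2b 2.78, 3.29 and 3.37 FPKM. Scn4b was listed at 0, 0.01 and 0. The ranges of these genes did not overlap, and 2 of the 4 beta genes lay above 1 FPKM, against 63.7% of all entries tested. Scn3b exceeded Scn2b by 5.16-fold (4.72 to 5.65, limma without moderation, adjusted p = 0.00221). All 3 other beta genes were below Scn3b past the threshold, where 67.5% of all entries were below it and 21.5% above without moderation, and 70.3% and 23.5% in the moderated test.

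Nalcn, the sodium leak channel that sets resting excitability, had 1.49, 1.69 and 2.00 FPKM and lay above 1 FPKM (limma's adjusted p = 0.000444). It was 10.9-fold (7.38 to 16.1) below Scn3a. All 3 of its matched partner genes passed, as did 63.7% of all entries tested. Fam155a, an ancillary subunit, had 32.7 ± 1.70, the scaffold gene Unc79 13.7 ± 2.34 and Fam155b 3.37 ± 0.259 FPKM, each higher than Nalcn in every library. A second entry with the symbol Fam155a had 19.1 ± 0.904 FPKM. The partner Unc80 was not analysed here.

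The FGF homologous factors bind the intracellular tail of sodium channels and are not secreted. Fgf13 had 79.7, 103 and 78.9 FPKM, the highest mean of all 43 genes, although its range overlapped that of Cacng4. That rank rested on library 2, without which Fgf13 averaged 79.3 FPKM and Cacng4 80.8 FPKM. Fgf12 had 31.8, 34.0 and 33.1 FPKM and Fgf14 5.04, 4.51 and 5.07 FPKM. The 3 genes did not overlap, and all lay above 1 FPKM, as did 63.7% of all entries tested. Fgf13 exceeded Fgf12 by 2.63-fold (1.91 to 3.61, limma without moderation, adjusted p = 0.00682) and Fgf14 by 17.5-fold (10.2 to 30.0). Both were below Fgf13 past the threshold, where 93.1% of all entries were below it and 3.69% above without moderation, and 94% and 4.13% in the moderated test. Fgf11, the other gene of this family, had 7.21 ± 0.734 FPKM.

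The calcium channel alpha1 subunits were led by a T-type pore. Cacna1h had 23.0, 17.3 and 21.9 FPKM. Cacna1b, the N-type pore of presynaptic terminals, had 11.1, 8.46 and 10.6 FPKM. Cacna1g, another T-type pore, had 9.37, 7.85 and 11.3 FPKM. Cacna1h was above both in every library without overlap, while the ranges of Cacna1b and Cacna1g overlapped and their order changed in library 3.

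Next came Cacna1a, the P/Q-type pore of mature terminals, with 6.91, 4.33 and 6.53 FPKM. The L-type pore Cacna1d, which activates at more negative potentials than its relatives, had 5.04, 3.15 and 6.0 FPKM. Cacna1c, the L-type pore of neurons and heart, had 3.96, 2.61 and 3.97 FPKM. Ranges of these neighbours overlapped, although the order held in every library. The third T-type pore, Cacna1i, had 2.34, 2.36 and 2.60 FPKM. Cacna1e, the R-type pore, had 2.17 and 2.10 FPKM in libraries 1 and 3 but 0.760 in library 2.

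Of the 10 alpha1 genes, 7 lay above 1 FPKM, as did 63.7% of all entries tested. Cacna1e did not pass (limma's adjusted p = 0.105), but did without library 2 (adjusted p = 0.00119, with a range of 2.62e-19 to 1 over the 13 alternatives, 1 being that of a level of 5 FPKM). Cacna1s of skeletal muscle reached at most 0.0400 FPKM and Cacna1f of retina at most 0.01 FPKM.

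Against Cacna1b, 1 of the 9 other alpha1 genes was higher past the threshold and 7 were lower, where 25.6% of all entries were higher and 52.3% lower without moderation, and 31.3% and 57.5% in the moderated test. Cacna1h exceeded Cacna1b by 2.05-fold (2.01 to 2.10, limma without moderation, adjusted p = 0.00497, in 3 of 3 libraries). Cacna1g and Cacna1b did not differ past the threshold, and the interval of their ratio, 0.703 to 1.26, leaves room for a difference in either direction. Cacna1b exceeded Cacna1a by 1.71-fold (1.31 to 2.23, adjusted p = 0.0212). This call did not hold in limma's test for more than a 1.5-fold difference (adjusted p = 0.218, with a range of 1.22e-11 to 0.218 over 10 alternatives). It exceeded Cacna1d by 2.16-fold (1.29 to 3.60), Cacna1c by 2.84-fold (2.23 to 3.61) and Cacna1i by 3.98-fold (2.82 to 5.63).

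Summed by class, the 3 T-type genes held 54.3%, 58.7% and 55.1% of the alpha1 FPKM in libraries 1, 2 and 3. The P/Q, N and R-type genes held 31.6%, 28.9% and 29.5%, and the 4 L-type genes 14.1%, 12.4% and 15.4%. T-type transcripts were the largest class in each of the 3 libraries, and most of that class was Cacna1h.

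**Figure D2:**
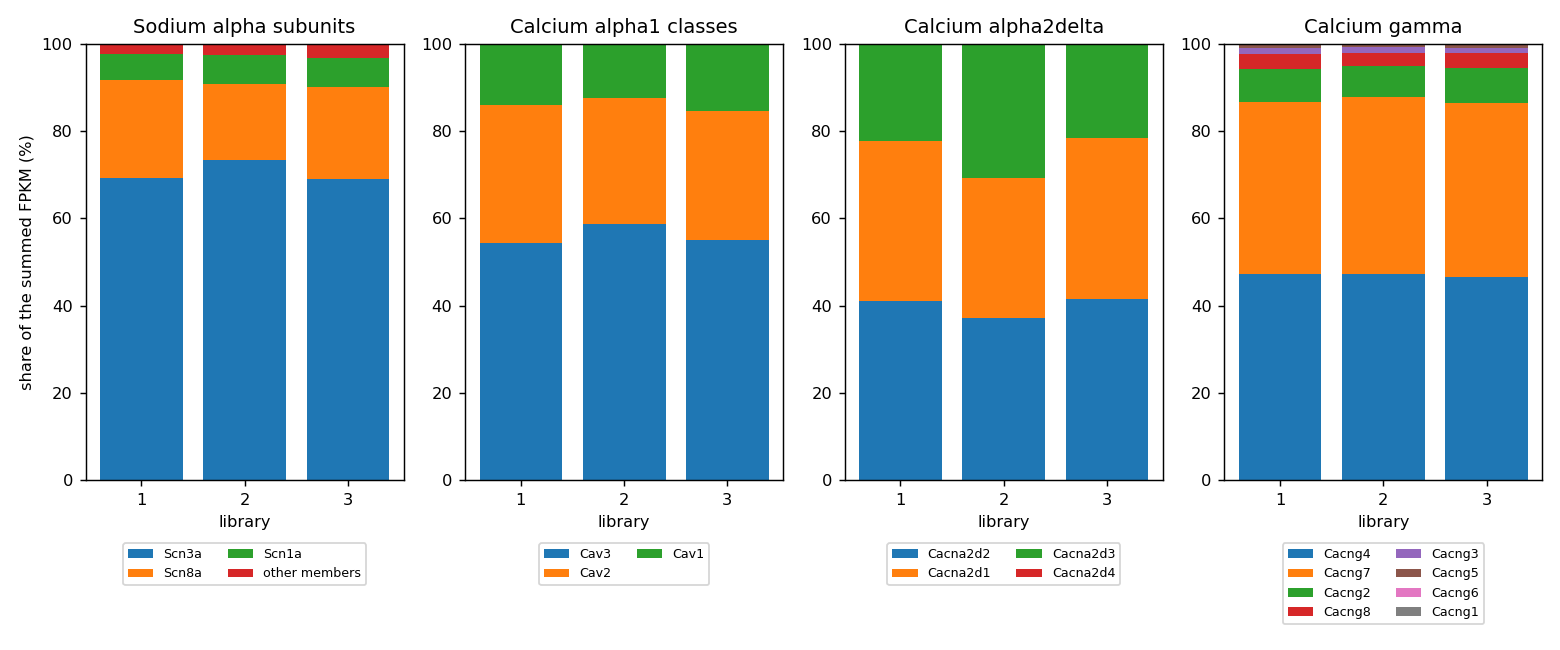
Share of summed FPKM (percent, stacked bars) within 4 families in libraries 1, 2 and 3. Cav3 stands for the T-type genes, Cav2 for Cacna1a, Cacna1b and Cacna1e, and Cav1 for the L-type genes. Scn3a holds 68.9% to 73.3% of the sodium alpha sum, or 59.4% to 62.6% with the SCN2A1 entry, which is not drawn. The Cacna2d3 share is 30.8% in library 2 against 22.2% and 21.5% in libraries 1 and 3.

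The alpha2delta subunits raise the number of calcium channels at the membrane, and Cacna2d1 and Cacna2d2 bind gabapentin. Cacna2d2 had 30.72, 24.99 and 33.04 FPKM, Cacna2d1 27.4, 21.6 and 29.5 FPKM and Cacna2d3 16.6, 20.7 and 17.1 FPKM. Cacna2d4, known from photoreceptors, reached at most 0.01 FPKM. Thus 3 of 4 lay above 1 FPKM, as did 63.7% of all entries tested. Library 2 was lowest for Cacna2d1 and Cacna2d2 and highest for Cacna2d3, so that the gap between the genes narrowed in that library.

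Calls within this family depended on the test. Cacna2d2 exceeded Cacna2d1 by only 1.13-fold (1.08 to 1.19), higher in 3 of 3 libraries. This passed without moderation (adjusted p = 0.0136) and not in limma's moderated test (adjusted p = 0.434, with a range of 0.0136 to 1 over 10 alternatives). Cacna2d1 exceeded Cacna2d3 by 1.43-fold (0.720 to 2.85), also in 3 of 3 libraries, and this passed in the moderated test (adjusted p = 0.0177) but not without moderation (0.171, with a range of 8.79e-20 to 0.711). The log2 ratio of Cacna2d3 to Cacna2d1 was -0.75 without library 2, against -0.52 with it. This ratio did not pass without library 1 (limma's adjusted p = 0.357) or library 3 (0.308), and Cacna2d2 over Cacna2d1 passed without library 2 (0.0331). In the moderated test 2 of 3 genes were below Cacna2d1 and 0 above, where 76.2% of all entries were lower and 12.8% higher. Without moderation 1 gene was below it, Cacna2d4, and 1 above, Cacna2d2, with an unadjusted p of 0.0078, where 70% of all entries were lower and 9.23% higher.

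The calcium channel beta subunits are cytosolic chaperones of the high voltage activated pores. Cacnb3, the usual partner of N-type pores, had 60.0, 64.4 and 62.9 FPKM. Cacnb1, the beta subunit first known from skeletal muscle, had 30.0, 30.8 and 32.5 FPKM. Cacnb4 had 4.45, 3.92 and 5.01 FPKM and Cacnb2 3.59, 3.55 and 4.45 FPKM, with overlapping ranges. All 4 lay above 1 FPKM, as did 63.7% of all entries tested. Cacnb3 exceeded Cacnb1 by 2.00-fold (1.82 to 2.21, limma without moderation, adjusted p = 0.00178), Cacnb4 by 13.8-fold (9.80 to 19.4) and Cacnb2 by 15.9-fold (11.6 to 21.6). All 3 were below Cacnb3 past the threshold, where 91% of all entries were below it and 5.59% above without moderation, and 91.8% and 6.03% in the moderated test. Summed over the family, beta transcripts had 102 ± 3.45 FPKM, against 58.6 ± 10.1 FPKM for all alpha1 genes.

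The gamma family held the highest calcium channel genes and some of the lowest. Cacng4 had 79.2, 89.1 and 82.5 FPKM and Cacng7 66.2, 77.1 and 70.4 FPKM. Both are AMPA receptor regulators, of which Cacng4 is known from immature brain. Cacng2, or stargazin, had 12.8, 13.5 and 14.0 FPKM and Cacng8, a regulator known from hippocampus, 5.73, 5.48 and 6.14 FPKM. Cacng3, known from cortex, had 2.36, 2.75 and 2.06 FPKM and Cacng5, a relative of Cacng7, 1.62, 1.11 and 1.58 FPKM. None of these 6 neighbours overlapped, and all 6 lay above 1 FPKM, Cacng5 with limma's adjusted p = 0.0108. Of all entries tested, 63.7% lay above it. Cacng6 was listed at 0, 0 and 0.0800 FPKM, and Cacng1, the gamma subunit of the skeletal muscle channel, at 0 in each library.

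Cacng4 exceeded Cacng2 by 6.18-fold (5.36 to 7.14, limma without moderation, adjusted p = 0.0024) and Cacng7 exceeded it by 5.27-fold (4.45 to 6.23). Cacng2 exceeded Cacng8 by 2.30-fold (2.03 to 2.60), Cacng3 by 5.46-fold (3.66 to 8.16) and Cacng5 by 8.91-fold (5.31 to 14.9). Of the 7 other gamma genes, 2 were above Cacng2 and 4 below past the threshold, where 25.6% of all entries were above and 63.3% below without moderation, and 27.9% and 65.8% in the moderated test. Cacng4 made up 47.0 ± 0.294% of the gamma sum and Cacng7 40.0 ± 0.703%.

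**Figure D3:**
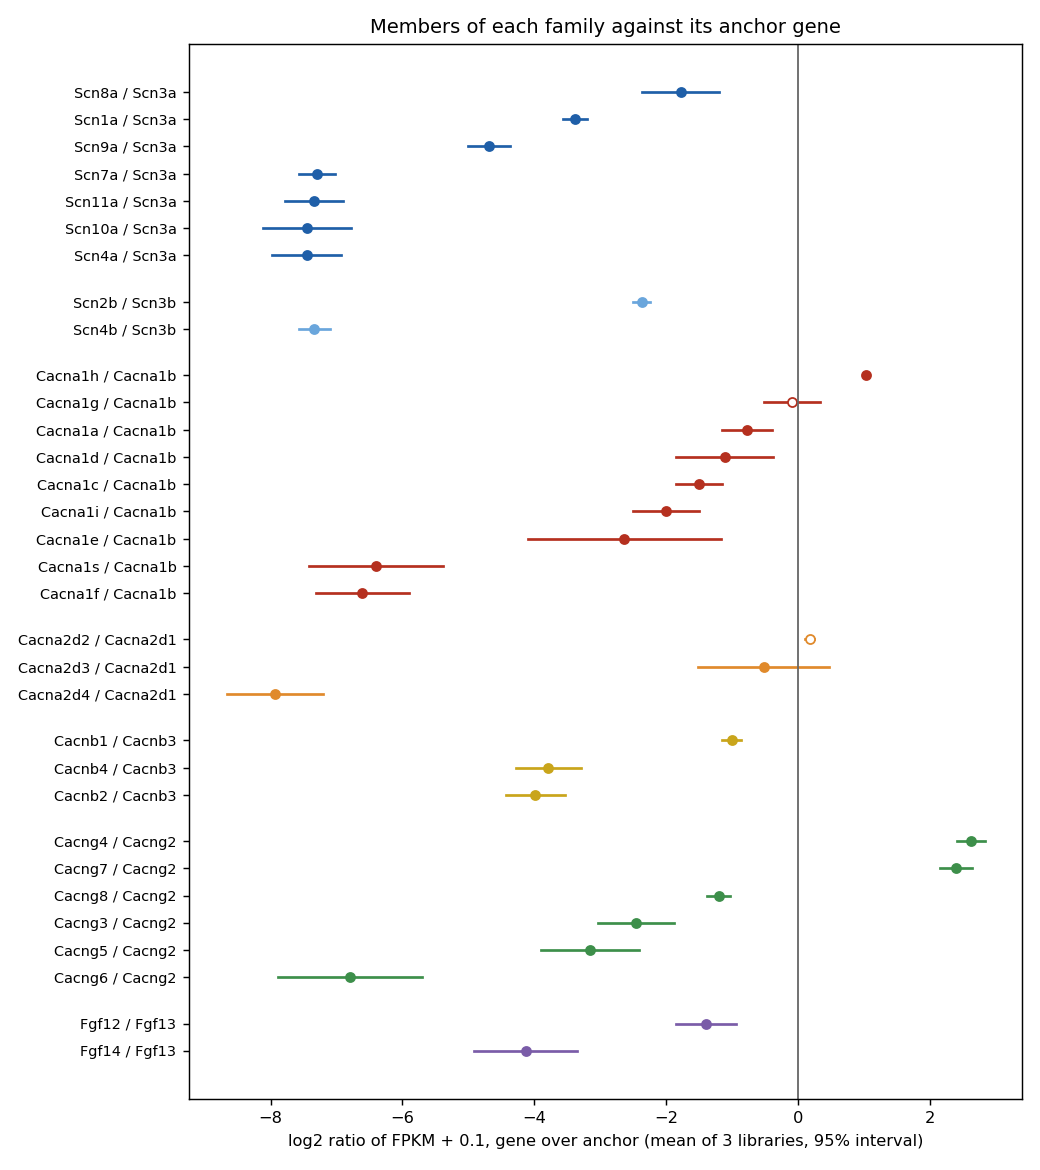
Log2 ratio of each gene to the named gene of its family on the FPKM + 0.1 scale, as the mean of 3 libraries (point) with the 95% interval from the ratio's own spread (line). Filled points passed limma's moderated test. Cacna1h, Cacng4 and Cacng7 lie right of 0, the ratio of Cacna1g to Cacna1b spans 0, and Cacna2d3 against Cacna2d1 is filled although its interval reaches 0. Cacna2d2 against Cacna2d1 also lies right of 0, as an open point whose interval (0.111 to 0.249) does not reach 0.

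Several of these genes are neighbours on the chromosome in the order of the rat assembly GRCr8. Adjacent genes differed widely in level. Cacng4 (83.6 ± 5.04 FPKM) stands between Cacng1, at 0, and Cacng5, at 1.44 ± 0.284 FPKM. Cacng7 (71.2 ± 5.51 FPKM) is next to Cacng8 (5.78 ± 0.333), which is next to Cacng6, at most 0.0800 FPKM. In the cluster of sodium pores, Scn3a (19.8 ± 2.67 FPKM) is followed by Scn2a and, after 4 other protein-coding genes, by Scn1a (1.82 ± 0.303), Scn9a (0.677 ± 0.158) and Scn7a (0.0267 ± 0.0208). Scn10a and Scn11a lie close together, with 1 gene between them, and neither exceeded 0.05 FPKM. Scn2b (3.15 ± 0.320 FPKM) is adjacent to Scn4b, at most 0.01 FPKM.

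The promoters of the channel genes were read from RefSeq (build GRCr8), as 250 bases before to 50 after each listed start. They matched 30 of the 43 genes, with 35 promoters. CpG content was expressed as observed over expected CpG pairs, with the mean taken where a gene had several promoters. The median was 0.917 for the 12 matched genes with a mean of 5 FPKM or more. It was 0.451 for 9 matched genes from 1 to 5 FPKM and 0.383 for 9 under 1 FPKM. Over all 33469 promoters in the table it was 0.392. Cacng4, Cacng7, Cacnb1, Cacna1h, Scn3b and Cacna1g also had means of 5 FPKM or more, but no matched promoter. These level classes were set after the values were seen. Across the 30 genes, Spearman's rho between level and CpG content was 0.554, and between level and GC content 0.222. Both describe genes that are related by descent, and the start used in these cells is not known. Scn3a, Fgf12 and Fgf13 reached 0.5, 0.497 and 0.615 with high levels, and Cacng6 had 0.793 at a level close to 0. The motif GGGCGG was found on either strand in 18 of the 35 promoters (51.4%), against 33.1% of all promoters, and TATAAA in 2 (5.71%), against 14.2%.

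Stretches of 100 bases directly before the start are shown for 4 genes chosen after their values were seen, a highly expressed auxiliary gene, a pair of expressed pores that differ in CpG content and a pore close to 0. Capitals mark CpG pairs, of which Cacnb3 has 13, Scn8a 22, Scn3a 1 and Scn10a 5.
Cacnb3 (chr7:131666451-131666550, plus strand): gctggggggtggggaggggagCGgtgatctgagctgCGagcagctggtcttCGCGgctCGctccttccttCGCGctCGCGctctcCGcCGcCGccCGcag
Scn8a (chr7:133861127-133861226, plus strand): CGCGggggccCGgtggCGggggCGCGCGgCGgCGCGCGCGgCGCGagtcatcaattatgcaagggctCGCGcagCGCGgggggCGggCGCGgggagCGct
Scn3a (chr3:70666199-70666298, minus strand): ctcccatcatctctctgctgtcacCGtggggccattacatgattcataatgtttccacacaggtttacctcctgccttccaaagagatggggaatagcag
Scn10a (chr8:128340299-128340398, minus strand): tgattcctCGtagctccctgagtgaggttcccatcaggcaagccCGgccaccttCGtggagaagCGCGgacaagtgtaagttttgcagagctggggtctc

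**Figure D4:**
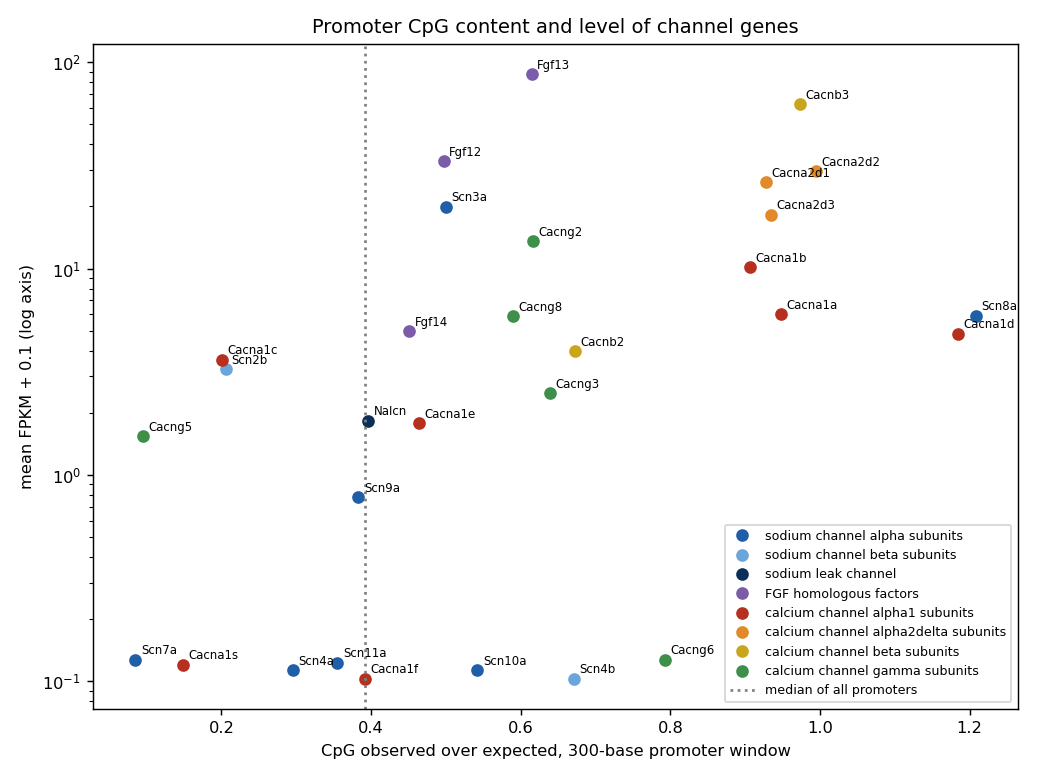
Mean FPKM + 0.1 (log axis) of 30 channel genes against the observed over expected CpG content of their promoters, coloured by family, with the median of all promoters (0.392) as a dotted line. Genes such as Scn3a and Fgf13 are high at moderate CpG content, and Cacng6 and Scn4b are close to 0 at similar or higher content.

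The left part of the RE1 element, TTCAGCACC, is bound by REST, a repressor of neuronal genes in other tissues and in progenitors. It was searched on both strands and occurred in 1 of the 35 promoters, that of Cacng3, and in 0.356% of all promoters in the table. Cacng3 held it at 2 places, starting 206 and 134 bases before the listed start, and the copies were identical at 26 of the 29 bases printed, 18 of them in 1 run. The first 15 bases of that run, a length chosen after the sequence was seen, occurred in 1 of all 33469 promoters. That promoter is the one of Cacng3, from which the 15 bases were taken, so its occurrence was fixed in advance. The right part of the element, GGACAGCG, occurred in 0 of the 35 promoters and in 1.21% of all. Capitals mark the 15 bases.
Cacng3 distal copy (chr1:186632346-186632374, plus strand): aagctgtcccTTCAGCACCACGGACctcc
Cacng3 proximal copy (chr1:186632418-186632446, plus strand): gagctgtccgTTCAGCACCACGGACctca

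Most pore genes were lower in library 2 than in the others. Of the 12 pore genes with a mean of at least 1 FPKM, 10 were lower in library 2 than in both other libraries and 0 were higher than in both, a count without a test. Among all 11662 entries with such a mean, 21.5% were lower and 62.1% higher. Of the 18 auxiliary genes, 7 were lower and 7 higher. The median log2 difference of library 2 from the mean of libraries 1 and 3 was -0.38 for pore genes and 0.04 for auxiliary genes, against 0.13 for all entries. Cacna1e, Cacna1d and Scn8a differed most, by -1.38, -0.78 and -0.73. Cacna1i and Nalcn lay between the other libraries. The highest were Fgf13 at 0.38, Cacng3 at 0.31 and Cacna2d3 at 0.29.

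Other values moved with library 2. The ankyrin and spectrin genes, which anchor sodium channels, summed to 200 FPKM in library 2 against 291 and 287 in libraries 1 and 3, and Ank3, the anchor of the axon initial segment, had 29.52 FPKM against 56.97 and 56.77. Commissural axon markers summed to 172 FPKM against 245 and 252, while the pan-neuronal list summed to 2477 against 2292 and 2233 and the progenitor list to 1183 against 928 and 958. Most of the progenitor sum came from Fabp7 (492, 686 and 514 FPKM in libraries 1, 2 and 3) and Vim (376, 428 and 389). Since 62.1% of all entries with a mean of at least 1 FPKM were highest in library 2, a higher sum there is not particular to these lists. In bulk RNA, fewer cells of a type and less RNA per cell cannot be told apart. The part of these differences in the low pore values was not tested, and transcript length and RNA quality were not examined. The leading gene of these families did not rest on library 2, since Scn3a, Cacna1h, Cacnb3, Cacng4 and Fgf13 led their families in each library.

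**Figure D5:**
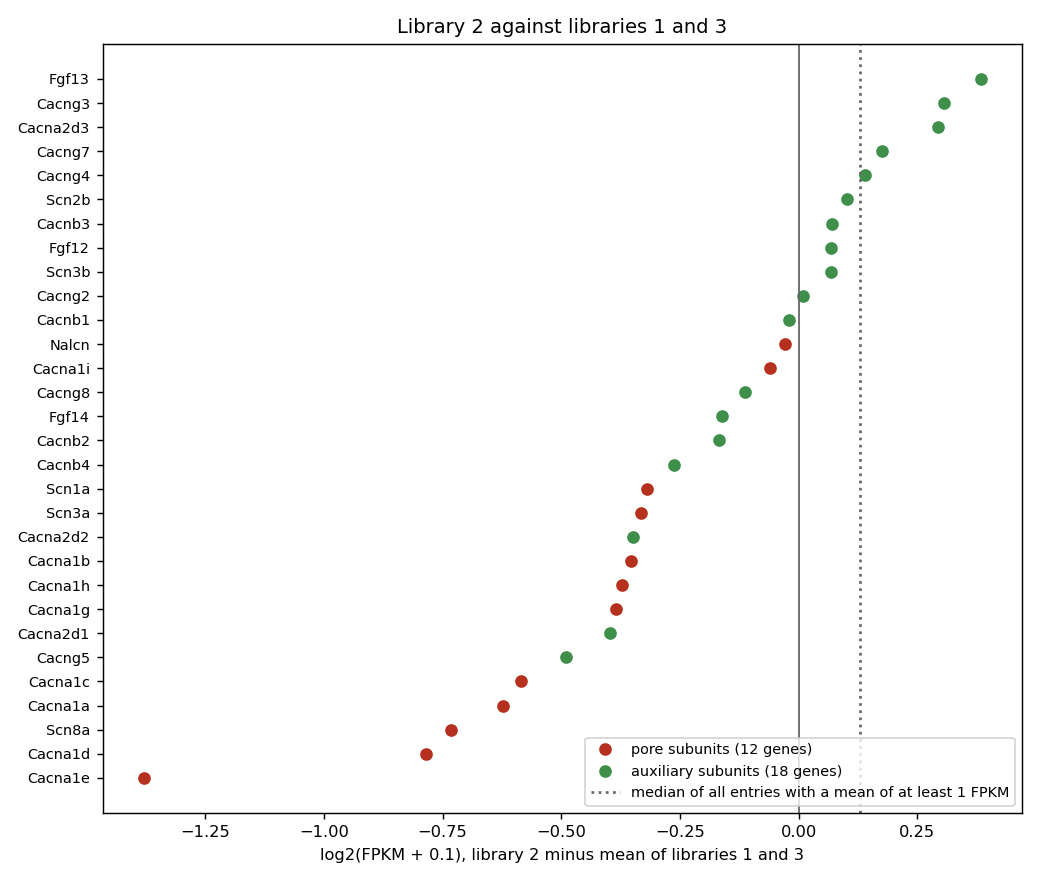
Difference of library 2 from the mean of libraries 1 and 3 in log2(FPKM + 0.1) for the 30 channel genes with a mean of at least 1 FPKM, with pore genes in red and auxiliary genes in green. The dotted line is the median of all entries with such a mean (0.13), and all 12 pore genes lie left of 0.

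Genes that work with these channels were read from the same test against 1 FPKM, which 63.7% of all entries tested passed. Passing alone therefore does not set these lists apart. All 8 ankyrin and spectrin genes lay above 1 FPKM, led by Sptan1 at 80.2 ± 13.7 and Ank3 at 47.8 ± 15.8 FPKM, with Sptbn4, the spectrin of mature initial segments, lowest at 2.22 ± 0.171. All 9 presynaptic scaffold genes passed, from Cask at 28.5 ± 1.57, Erc1 at 13.0 ± 0.813 and Erc2 at 10.3 ± 0.955 to Rimbp2 at 3.41 ± 0.560 FPKM. Of the 12 calcium channel regulators, 7 passed. The calmodulin genes Calm2 and Calm3, whose product senses calcium at these channels, had 663 ± 70.8 and 282 ± 33.1 FPKM, and Rem1, an inhibitory GTPase, was listed at 0 in each library.

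Pumps and calcium stores keep the ion gradients that these channels use. Their counts also stand beside the 63.7% of all entries tested that passed. Of the 6 sodium pump genes, 5 passed, among them the beta subunit genes Atp1b1 at 64.1 ± 4.41, Atp1b3 at 48.1 ± 4.12 and Atp1b2 at 5.76 ± 1.24 FPKM. Of the 9 calcium pumps and exchangers, 8 passed, led by Atp2a2, the pump of the endoplasmic reticulum, at 86.5 ± 1.74, Atp2b1 at 36.4 ± 3.08 and Slc8a2 at 22.3 ± 1.42 FPKM, with Atp2a3 lowest at 0.0200 ± 0.01. Of the 11 store release and refilling genes, 6 passed, led by the calcium sensor Stim2 at 9.91 ± 0.655 and the store-operated channels Orai1 at 8.09 ± 0.229 and Orai2 at 7.75 ± 0.678 FPKM, while Ryr1, the release channel of skeletal muscle, was among the lowest at 0.0333 ± 0.0115.

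Markers of other cells were mostly low, but several astrocyte and microglia markers were not. In limma's test, 1 of 6 oligodendrocyte lineage, 3 of 6 astrocyte and 2 of 5 microglia markers lay above 1 FPKM. Of the endothelial and mural markers 0 of 5 did (also 0 by unadjusted p under 0.05), against 63.7% of all entries tested. The highest of these markers were Slc1a2 of astrocytes at 26.6 ± 1.64, Aif1 of microglia at 6.76 ± 1.47 and Gja1 of astrocytes at 6.22 ± 0.721 FPKM. The sums of the microglia list were 7.56, 11.4 and 11.7 FPKM in libraries 1, 2 and 3. Olig2 and Sox10 reached at most 0.0200 and 0.0300 FPKM.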

How the data were processed

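FPKM values of the 3 libraries stand in 1 table that the authors deposited, and its columns were matched to the samples by the labels' descriptions. Per the submitters' processing notes, FastQC, Trimmomatic 0.22, STAR and the build rn6 were used. The sources used here do not name the tool or annotation behind the FPKM values, or the use of strand. Summed FPKM was 25032147, 19897930 and 26236642 in libraries 1, 2 and 3, most of it in 56 entries above 10000 FPKM. No library was left out.

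Values were analysed as log2(FPKM + 0.1) in R 4.3.3 with limma 3.58.1 and statmod 1.5.0. All 17611 entries that were not 0 throughout were tested one-sided against 1 FPKM with a trended, robust prior and Benjamini-Hochberg adjustment over all entries (threshold 0.05). Ratios to 1 gene per family were tested two-sided over all entries. The test against 1 FPKM and the moderated ratio test, the latter only against Scn3a, were run on simulated data. The unmoderated ratio test behind the printed intervals was not. The members and lists were chosen with earlier results of these data known. All members are named, and of other lists the 3 highest and the lowest gene (all where 6 or fewer matched), except a few genes that enter the counts but are not reported here. Further ones named beside a result were chosen after their values were seen, as were the unmoderated ratio test, the family shares, the comparison of library 2 with its minimum of 1 FPKM, the neighbour limit of 4 genes and the promoter features. Alternatives were other pseudocounts, filters, scalings, levels and priors, a 1.5-fold margin and each library left out. Figures used Python 3.11.15 and matplotlib 3.10.9.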

Additional observations from a re-analysis of the deposited data

How the results depend on the processing

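Over all settings, 831 of 858 values of single genes kept their direction and their side of the threshold, and 75 of 83 counts stayed within 1.5 times the reported ones. Against 5 FPKM in place of 1 FPKM, 16 channel genes passed in place of 29. Restricting the fits to entries with a mean of at least 0.5 FPKM left 3 sodium alpha genes, 1 sodium beta gene and 1 alpha2delta gene different from Scn3a, Scn3b and Cacna2d1, since the genes close to 0 were not tested. With neither trend nor robust prior, and with a margin of 1.5-fold, 1 alpha2delta gene differed from Cacna2d1. Leaving out each library in turn gave 29 to 30 channel genes above 1 FPKM, and 8 to 8 sodium alpha, 2 to 3 sodium beta, 7 to 8 alpha1, 1 to 3 alpha2delta, 3 to 3 calcium beta, 5 to 6 gamma and 2 to 2 FGF homologous factor genes that differed from the named gene of their family. These ratio counts come from limma's moderated test, not from the test behind the printed ratio intervals. Scn4b and Cacna1f, at 0 in libraries 1 and 3, were not tested without library 2. Scaled to the sum of the entries up to 10000 FPKM, which multiplied every value by 1.93 to 2.19, Scn9a turned from below to above 1, at 1.38. No paired analysis was possible because the series has 1 group. Genes under about 0.1 FPKM have no order at this precision.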
